A study of Mus musculus with 44 samples.

Results

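The globin genes of the mouse were followed in B6C3F1 mice, the hybrid of the C57BL/6 and C3H strains, in 3 tissues (bone marrow, liver and spleen) after 2-butoxyethanol (2BE, a glycol ether solvent known for the haemolysis it causes in rodents) or vehicle. The members were Hba-a1, Hbb-b2, Hbb-bh1, Hbb-y, Hba-x and Ahsp, taken as the probe sets of an expression array that carry exactly 1 of these symbols. That gave 10 probe sets of 45037 tested, covering 5 of the 6 genes: 1 for Hba-a1, 2 for Hbb-b2, 3 for Hbb-bh1, 3 for Hbb-y and 1 for Hba-x. Ahsp, which encodes the chaperone that holds free alpha chains in solution, was not analysed here. Another 4 probe sets read a member together with its near-identical copies and are given apart: 3 carry Hba-a1 with Hba-a2, and 1 carries Hbb-b2 with Hbb-b1, Hbb-bs and Hbb-bt.

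The 44 arrays fell into 10 groups. At 4 h, liver had 3 vehicle and 4 2BE arrays and spleen 4 and 4. At 7 days, liver had 4 and 5, bone marrow 5 and 5, and spleen 5 and 5. Groups follow the sample titles; the treatment field of the labels calls the 2BE arrays "reduced oxygen" and the vehicle arrays "control". Dose, route, age and sex are not given in the sources used here, and nothing in them says which arrays come from 1 animal, so p-values measure the spread between arrays. Marrow came from the humerus, liver from the left lateral lobe and spleen from a piece of a cross-section, all without any stated removal of blood. Hepatocyte markers led in liver, with mean log2 values between 14.47 and 14.94, and neutrophil markers in marrow, between 14.10 and 14.26. Array medians clustered by tissue and time, with those of spleen at 4 h (87.03 to 89.18) inside the range of marrow at 7 days (86.24 to 89.62) and the other 3 sets apart, and whether the sets were normalized together is unknown here, so levels are compared only within a tissue and time. In spleen at 4 h, vehicle replicate 3 had the highest erythroid marker mean, 11.98 against 10.90 to 11.38 in the other vehicle arrays. The 2BE arrays of that set also spread, from 10.92 to 11.74. Its neutrophil marker mean ran from 9.93 to 13.35 in vehicle and 10.63 to 11.78 in 2BE arrays. The part of this spread in the 4 h spleen values was not tested. By the erythroid mean, vehicle replicate 1 of spleen at 7 days stood low, at 8.81 against 10.19 to 10.48.

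Haemoglobin is a tetramer of a pair of alpha-type and a pair of beta-type chains, each holding a haem. In mice the alpha-type genes Hba-x (embryonic zeta), Hba-a1 and Hba-a2 (adult) lie in one cluster, and the beta-type genes Hbb-y and Hbb-bh1 (embryonic) and the adult beta genes in another. Yolk sac red cells use the embryonic genes, and the red cells made later in fetal liver, marrow and spleen use the adult ones. The adult beta pair is called Hbb-bs and Hbb-bt in one common haplotype and Hbb-b1 and Hbb-b2 in the other. The mouse spleen keeps the ability to make red cells in adult life and enlarges that output under anaemia.

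The 150 bases before the start of an adult and an embryonic gene of each cluster are shown because these genes share expression in one lineage and differ in stage. They are RefSeq sequences of build GRCm38.p6, found for 3 of the 6 members, with Hbb-bs added as 1 of the 2 adult beta genes of the same table, the other being Hbb-bt. Hba-a1 lies at chr11:32283522-32283671 and Hba-x at chr11:32276450-32276599, both on the plus strand; Hbb-bs lies at chr7:103827929-103828078 and Hbb-y at chr7:103853208-103853357, both on the minus strand. Capitals mark 4 motifs searched on both strands: GATAA (the core read by GATA factors), CCAAT (a common promoter box), CACCC (the box read by Klf1 and its relatives) and ATAAA (within TATA boxes).
Hba-a1: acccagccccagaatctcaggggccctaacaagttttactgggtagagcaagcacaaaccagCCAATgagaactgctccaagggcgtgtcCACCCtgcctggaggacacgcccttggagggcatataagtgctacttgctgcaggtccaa
Hbb-bs: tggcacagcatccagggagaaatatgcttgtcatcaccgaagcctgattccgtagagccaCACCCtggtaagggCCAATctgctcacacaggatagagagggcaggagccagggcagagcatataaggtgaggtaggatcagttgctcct
Hba-x: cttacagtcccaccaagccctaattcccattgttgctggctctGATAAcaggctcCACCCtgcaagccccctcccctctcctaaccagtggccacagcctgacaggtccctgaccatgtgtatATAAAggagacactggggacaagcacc
Hbb-y: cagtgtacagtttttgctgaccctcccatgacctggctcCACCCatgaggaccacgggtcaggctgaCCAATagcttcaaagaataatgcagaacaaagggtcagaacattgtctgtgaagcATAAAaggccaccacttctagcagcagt
CACCC was present in all 4 windows and, 3 times, in that of Hbb-bt, against 37.4% of 32851 promoter windows of the same length. CCAAT was found in Hba-a1, Hbb-bs and Hbb-y, and 3 times in Hbb-bt, against 24.5% of all windows. ATAAA was found in Hba-x and Hbb-y, and also in the adult Hbb-bt window, which is not printed, against 24.1%. GATAA was found in Hba-x, against 13.3%. The promoter entries of Hba-a1 and Hba-a2 were identical at 297 of 297 aligned bases, offset by 3 bases; these are copies whose transcripts 3 of the probe sets do not separate.

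At 4 h no globin probe set passed the test in either tissue, whereas at 7 days the globin probe sets of spleen rose almost throughout and those of marrow and liver in part. A probe set was called where limma gave an adjusted p under 0.05 over all 45037 probe sets. Spleen at 7 days had 9 of the 10 members higher by this test and 1 lower, in a tissue where 58.5% of all probe sets were called, 29.7% higher and 28.8% lower. In marrow at 7 days 4 rose and none fell, against 15.1% of all probe sets called and 6.69% higher. In liver at 7 days 1 rose and none fell, against 0.473% called and 0.342% higher. At 4 h the count was 0 of 10 in liver, against 3.11% of all probe sets called, and 0 of 10 in spleen, against 4.24%; at an unadjusted p under 0.05 it was 2 in each tissue. Taking the replicate numbers of liver at 4 h as pairs changed the number called over all probe sets from 1400 to 856 and left the members at 0. The median log2 fold change of the 10 members was 0.73 in spleen at 7 days, where that of all probe sets was 0.05. It was 0.24 in marrow against 0.00 for all, and 0.03 in liver at 7 days against 0.00. At 4 h it was -0.03 in liver and -0.09 in spleen.

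**Figure D1:**
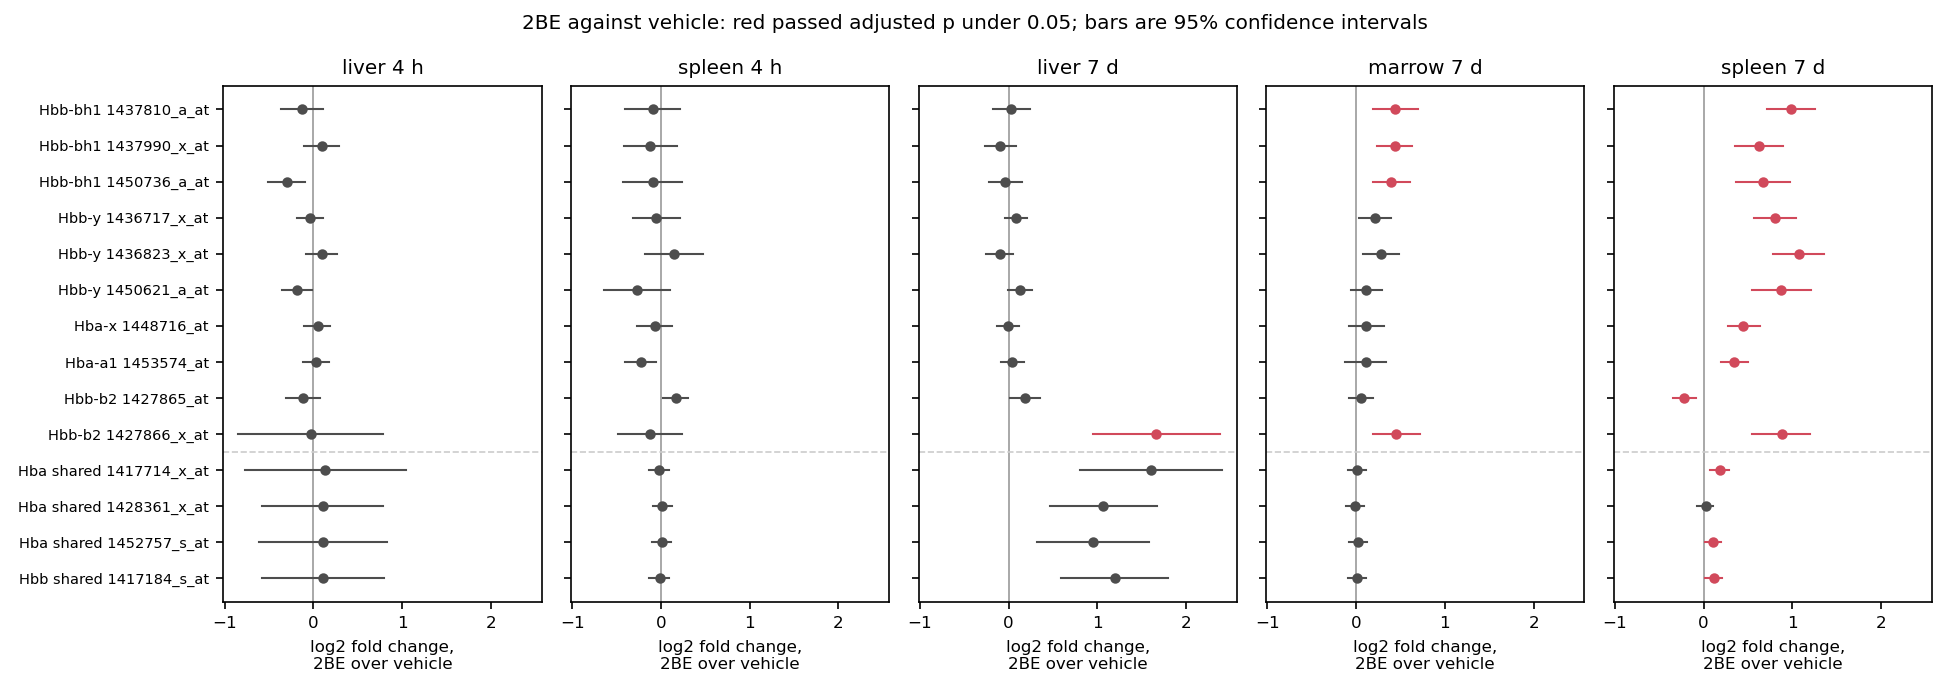
Log2 fold change of 2BE over vehicle with its 95% confidence interval for each globin probe set in the 5 tissue and time sets; red marks an adjusted p under 0.05, and the dashed line separates the 10 single-symbol probe sets from the 4 shared adult ones. Red covers all 10 single-symbol and 3 shared probe sets in spleen at 7 days, 4 in marrow and 1 in liver.

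The adult alpha and beta transcripts, read by the 4 shared probe sets, were at the ceiling of the spleen and marrow arrays and below it in liver. In liver at 7 days every 2BE array lay above every vehicle array in all 4, and yet none was called. For 1417714_x_at (Hba-a1 and Hba-a2) the vehicle livers read 2789, 5114, 7725 and 4194, and the 2BE livers 14120, 14407, 17419, 14675 and 10933. The log2 fold change was 1.61 ± 0.38 (SE), 3.05-fold, with an adjusted p of 0.0744. For 1417184_s_at (the adult beta genes) the vehicle livers read 5713, 10077, 11378 and 7707, and the 2BE livers 18356, 20368, 21973, 20241 and 16138, a log2 fold change of 1.20 ± 0.29 with an adjusted p of 0.0839. The lowest 2BE liver lay above the highest vehicle liver in both. The alpha probe sets 1428361_x_at and 1452757_s_at differed by 1.07 ± 0.28 and 0.95 ± 0.30, with adjusted p-values of 0.12 and 0.211. In the liver set 2.25% of all probe sets had every 2BE array above every vehicle array. Fitted on the liver arrays of 7 days alone, all 4 were called, with adjusted p-values of 0.0206 to 0.028.

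The spread that enters the liver fit was itself large at 4 h. The 3 vehicle livers read 3644, 9336 and 1848 for 1417714_x_at, and the 2BE livers 2936, 4994, 7146 and 3431. The arms overlapped there in all 4 shared probe sets, whose log2 fold changes ran from 0.10 to 0.13. Within-group SDs of the 4 were 0.666 to 0.865 on the log2 scale, where the median over all probe sets was 0.119. Adult globin RNA in liver can come from blood in the tissue as well as from red cell precursors, and how much blood each piece held was not measured. In liver at 7 days 0 of the 10 measured genes of the erythroid precursor list were called, where 0.473% of all probe sets were. That count is near the share over all probe sets and is no result about the list. The mean log2 value of the list was 6.28 to 6.41 in vehicle and 6.38 to 6.49 in 2BE arrays. Its median gene lay at the 53.6th percentile of the array. The part of these genes in the liver globin values was not tested.

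**Figure D2:**
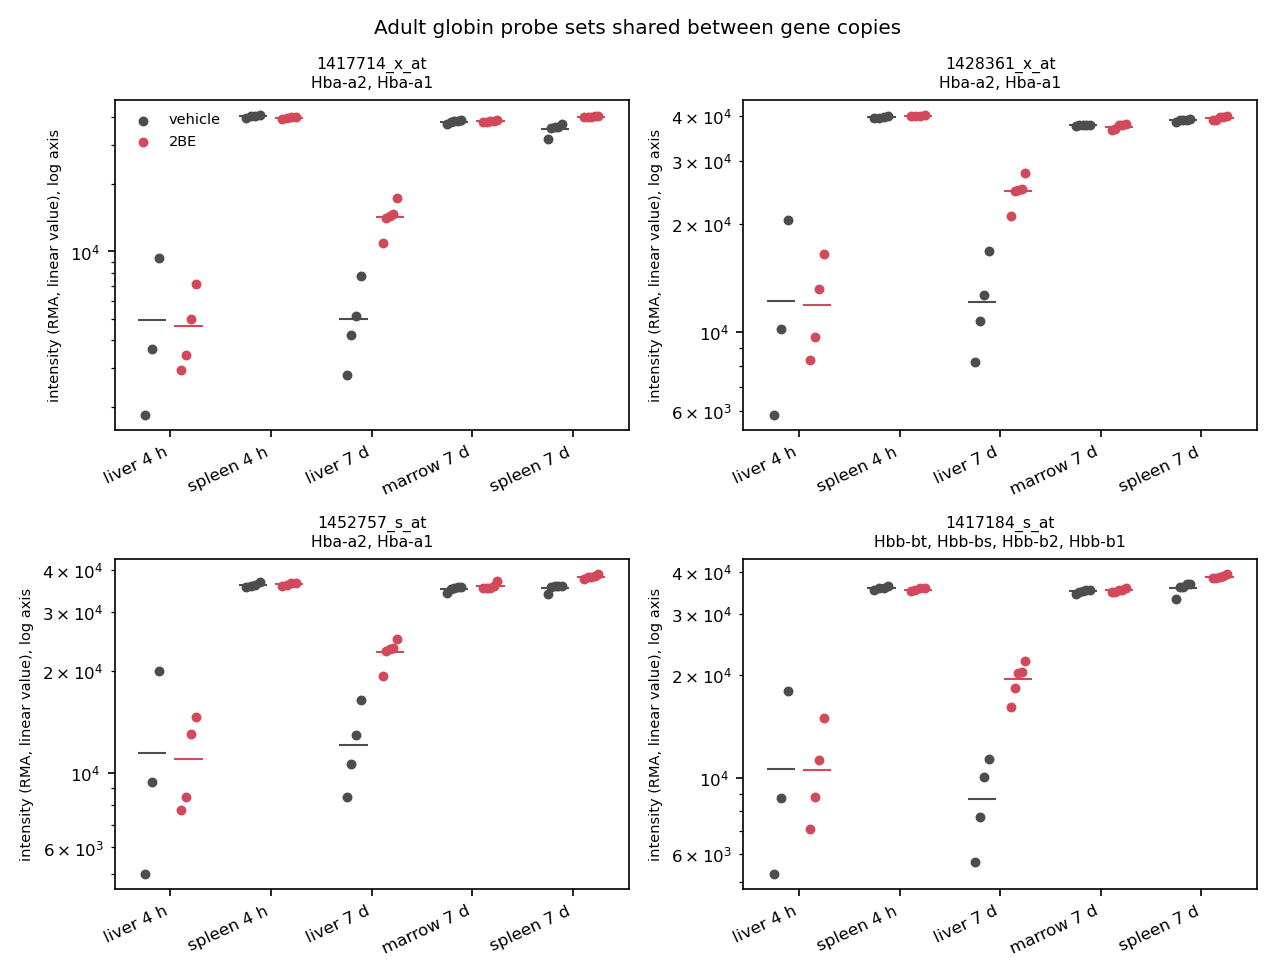
Intensity (log axis) of the 4 adult globin probe sets shared between gene copies on each array, vehicle in grey and 2BE in red, with the mean of each group as a bar; points are spread sideways for view, and levels are comparable only within a tissue and time. Spleen and marrow arrays sit at the top of the scale, while in liver at 7 days all 2BE arrays lie above all vehicle arrays.

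In spleen and marrow the same 4 probe sets sat at the ceiling of the arrays. They held ranks 1 to 5 on every spleen and marrow array, at 81.5% to 100% of the brightest value of their array. At 4 h in spleen their within-group SDs were 0.00753 to 0.0165, against a median of 0.136 over all probe sets and of 0.041 over the 100 brightest. In marrow, 3 of the 5 vehicle arrays carried the same value, 37726, for 1428361_x_at. Equal values also occurred on a dim probe set: vehicle replicates 1 and 2 of liver at 4 h both read 24.58 on 1448716_at (Hba-x). A tie is therefore no mark of a ceiling by itself. Whether the scanner, probe capacity or the normalization set the values of the shared probe sets was not tested. The small fold changes below thus give no limit on the RNA change. In marrow the 4 differed by -0.01 to 0.02, with adjusted p-values of 0.809 or more.

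The spleens of 7 days showed small rises in 3 of the 4. For 1417714_x_at the vehicle spleens read 32167, 36035, 36377, 36154 and 37388, and the 2BE spleens 40466, 39992, 40116, 40610 and 40196. All 2BE values lay above all vehicle values, with a log2 fold change of 0.18 ± 0.05 and an adjusted p of 0.00506; after further quantile normalization it was 0.12 and no longer called (adjusted p = 0.0506). 1417184_s_at rose by 0.11 ± 0.05 (adjusted p = 0.0442) and 1452757_s_at by 0.11 ± 0.05 (adjusted p = 0.0455), while 1428361_x_at differed by 0.02 ± 0.04 (adjusted p = 0.69). The other calls depended on the processing too: after the same normalization 1417184_s_at turned to -0.004 (adjusted p = 0.939), and its call was lost without vehicle replicate 1, 3 or 5 or 2BE replicate 1, 2, 3 or 4 (adjusted p up to 0.126). That of 1452757_s_at was lost without any of the 5 vehicle arrays or 2BE replicate 1, 2, 3 or 4 (up to 0.112). With the replicate block their adjusted p-values were 0.098 and 0.0998. Fitted on the spleen arrays of 7 days alone, both calls were lost as well (adjusted p = 0.0994 and 0.101). A pseudocount of 0 also ended the call on 1452757_s_at (adjusted p = 0.0517).

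Hbb-b2 is an adult beta gene of the diffuse haplotype. Its probe set 1427866_x_at was the only member probe set called higher in all 3 tissues at 7 days. The other Hbb-b2 probe set was not, as given below. In spleen the vehicle arrays read 2685, 5166, 4826, 4748 and 5040, and the 2BE arrays 7142, 10922, 8232, 8050 and 6495. The arms did not overlap, and the rise was 0.88 ± 0.15 on the log2 scale, 1.84-fold (adjusted p = 9.13e-05). In marrow the vehicle arrays read 7036, 6561, 6971, 6439 and 5692, and the 2BE arrays 6514, 9255, 11357, 10531 and 7904. There 2BE replicate 1 lay within the vehicle range and the other 4 above it, with a rise of 0.46 ± 0.12, 1.37-fold (adjusted p = 0.0236). In liver the vehicle arrays read 41.5, 76.7, 85.3 and 54.4, and the 2BE arrays 184, 227, 293, 235 and 107. All 2BE livers lay above all vehicle livers, a rise of 1.66 ± 0.34, 3.17-fold (adjusted p = 0.0364).

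The call in liver was lost when any 1 of the 4 vehicle arrays, or 2BE replicate 2, 3 or 4, was left out, with adjusted p-values of 0.0692 to 0.117 and rises of 1.47 to 1.81. The marrow call was lost without vehicle replicate 4 or 5 or 2BE replicate 2, 3 or 4, at adjusted p-values of 0.05 to 0.0644. Trended robust eBayes also ended the calls in liver (adjusted p = 0.1) and marrow (adjusted p = 0.059). The spleen call held without each array in turn, with rises of 0.70 to 0.96. At 4 h the same probe set read 34.5, 67.3 and 22.1 in vehicle livers and 27.6, 39.3, 63.4 and 25.4 in 2BE livers, and 3986 to 4379 in vehicle spleens and 3403 to 4253 in 2BE spleens; the arms overlapped in both. Across the 44 arrays, taken as deviations from the midpoint of the arms of each set, 1427866_x_at correlated with the 4 shared adult probe sets at r = 0.795 to 0.849, and the shared sets with the embryonic ones at -0.069 to 0.25. These correlations are a description over arrays that share groups and normalization. The shared sets were at the ceiling in spleen and marrow, the tissues where embryonic probe sets were called. Their correlation with the embryonic sets therefore cannot show whether adult and embryonic globin RNA changed together.

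The other Hbb-b2 probe set, 1427865_at, ran against the first in spleen. At 7 days it read 60.2, 59.2, 54.7, 61.4 and 59.2 in vehicle and 49.3, 53.9, 48.0, 50.8 and 50.4 in 2BE spleens, a fall of -0.22 ± 0.06 (adjusted p = 0.00487). The arms did not overlap; in that spleen set 22.9% of all probe sets had every 2BE array below every vehicle array. In liver at 7 days every 2BE array (104 to 114) lay above every vehicle array (82.6 to 101), a difference of 0.19 ± 0.08 that did not pass the test (adjusted p = 0.423). Marrow gave 0.05 ± 0.06 (adjusted p = 0.659). The probe sets of 1 gene therefore disagreed in spleen, and which of them reads Hbb-b2 alone was not tested.

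**Figure D3:**
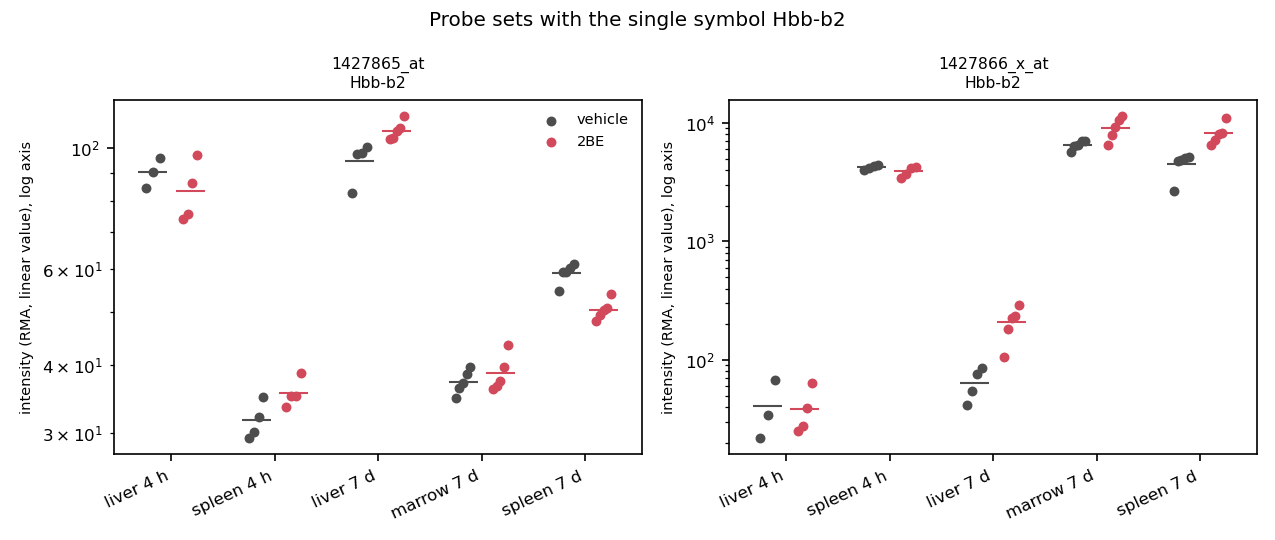
Intensity (log axes of different range) of the 2 single-symbol Hbb-b2 probe sets on each array, vehicle in grey and 2BE in red, with group means as bars; points are spread sideways for view. In spleen at 7 days 1427866_x_at is higher on all 2BE arrays and 1427865_at lower.

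Hba-a1, an adult alpha gene, had 1 probe set of its own, 1453574_at, a dim one that lay between the 16.27th and 24.87th percentile of the spleen arrays of 7 days. It read 26.4, 29.98, 28.3, 28.4 and 24.9 in vehicle and 34.97, 36.7, 39.8, 32.6 and 32.7 in 2BE spleens. The arms did not overlap, and the rise was 0.35 ± 0.07, 1.27-fold (adjusted p = 0.000501). Marrow (0.11 ± 0.11, adjusted p = 0.558) and liver at 7 days (0.04 ± 0.06, adjusted p = 0.911) did not pass the test. In spleen at 4 h the 2BE arrays read 22.2, 25.5, 24.2 and 21.01, all below the vehicle arrays at 25.8, 29.7, 26.6 and 27.1, a difference of -0.23 ± 0.08 that was not called (adjusted p = 0.133). In that set 6% of all probe sets had every 2BE array below every vehicle array. A probe set for Hba-a2 alone, 1427219_at, which is no member, rose by 0.43 ± 0.11 in spleen at 7 days (adjusted p = 0.00246).

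All 7 embryonic globin probe sets were called higher in spleen at 7 days, where 29.7% of all probe sets were. The arms did not overlap on 6 of the 7, against 18.3% of all probe sets with every 2BE array above every vehicle array. These probe sets were dim: none passed the 63.78th percentile of its array, and 1436717_x_at (Hbb-y) lay between the 4.88th and 20.77th. Whether they were above background, or read embryonic globin RNA alone, was not tested. Hbb-y, the embryonic epsilon-type chain, rose most on 1436823_x_at, where vehicle spleens read 13.8, 13.7, 13.5, 14.9 and 13.5 and 2BE spleens 40.7, 33.1, 28.3, 32.0 and 20.6. The lowest 2BE value was above the highest vehicle value, with a rise of 1.07 ± 0.14 on the log2(value + 1) scale (adjusted p = 2.96e-06). The vehicle values lay between the 2.96th and 4.25th percentile of their arrays, so near the floor that the size of this fold is uncertain. On 1450621_a_at the vehicle spleens read 25.6, 36.3, 37.8, 33.5 and 32.2 and the 2BE spleens 60.3, 88.9, 51.8, 76.9 and 39.5, a rise of 0.88 ± 0.16 (adjusted p = 0.000109). On 1436717_x_at vehicle ran from 14.8 to 20.8 and 2BE from 24.5 to 35.1, a rise of 0.80 ± 0.11 (adjusted p = 6.76e-06). 2BE replicate 5 was the lowest treated array on all 3 Hbb-y probe sets.

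Hbb-bh1, the other embryonic beta-type chain, rose on 1437810_a_at from 63.8, 94.5, 76.0, 98.2 and 78.9 in vehicle spleens to 165, 176, 172, 192 and 114 in 2BE spleens. Replicate 5 was again the lowest 2BE array but above the highest vehicle array, and the rise was 0.98 ± 0.13, 1.97-fold (adjusted p = 4.16e-06). The probe sets 1450736_a_at and 1437990_x_at rose by 0.67 ± 0.14 (adjusted p = 0.000665) and 0.62 ± 0.13 (adjusted p = 0.000458). On 1450736_a_at 2BE replicate 1 read 179 and the other 2BE arrays 96.4 to 122, and the rise was 0.51 without that array. Hba-x, the zeta chain that pairs with the embryonic beta types, read 50.02, 66.1, 55.7, 62.3 and 54.0 in vehicle and 77.1, 86.5, 86.6, 79.3 and 65.4 in 2BE spleens. The lowest 2BE array lay just under the highest vehicle array, and the rise was 0.45 ± 0.09, 1.36-fold (adjusted p = 0.000221).

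In marrow the 3 Hbb-bh1 probe sets rose; those of Hbb-y and Hba-x did not pass the test in the fit used here, and whether the genes differ was not tested. On 1437810_a_at vehicle marrow read 76.2, 85.6, 78.6, 73.9 and 68.9 and 2BE marrow 80.3, 108, 144, 97.1 and 101, a rise of 0.44 ± 0.12 (adjusted p = 0.0205) that lost its call without vehicle replicate 5 (adjusted p = 0.0558). On 1437990_x_at and 1450736_a_at the rises were 0.44 ± 0.09 (adjusted p = 0.00476) and 0.40 ± 0.10 (adjusted p = 0.0141). On each of the 3, 2BE replicate 1 lay within the vehicle range and the other 4 2BE arrays above it; in marrow 5.69% of all probe sets had every 2BE array above every vehicle array. Hbb-y differed by 0.28 ± 0.09 on 1436823_x_at (adjusted p = 0.0595), which passed with median scaling (0.0395), trended robust eBayes (0.0453), array weights (0.0352) and without 2BE replicate 5 (0.018). On 1436717_x_at it differed by 0.21, which passed without 2BE replicate 5 (adjusted p = 0.0461), and on 1450621_a_at by 0.11. Hba-x differed by 0.12 ± 0.09 (adjusted p = 0.441).

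In liver at 7 days the embryonic probe sets differed by -0.10 to 0.13, with adjusted p-values of 0.546 or more and overlapping arms throughout. At 4 h the embryonic probe sets gave -0.30 to 0.09 in liver and -0.27 to 0.15 in spleen, all uncalled. The arms were apart on 2 of them: Hbb-bh1 on 1450736_a_at in liver, at 16.8 to 20.5 in vehicle and 13.8 to 15.1 in 2BE (-0.30 ± 0.10, adjusted p = 0.13), and Hbb-y on 1450621_a_at in spleen, at 18.8 to 23.0 in vehicle and 16.3 to 17.97 in 2BE (-0.27 ± 0.18, adjusted p = 0.453). 3.92% of all probe sets in liver at 4 h had every 2BE array below every vehicle array. The embryonic probe sets were dim: in liver at 7 days none of the 7 passed the 54.99th percentile of its array, and 1436717_x_at (Hbb-y) stayed at or below the 1.89th. The values carry no detection call, so whether a dim probe set was above background was not tested.

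**Figure D4:**
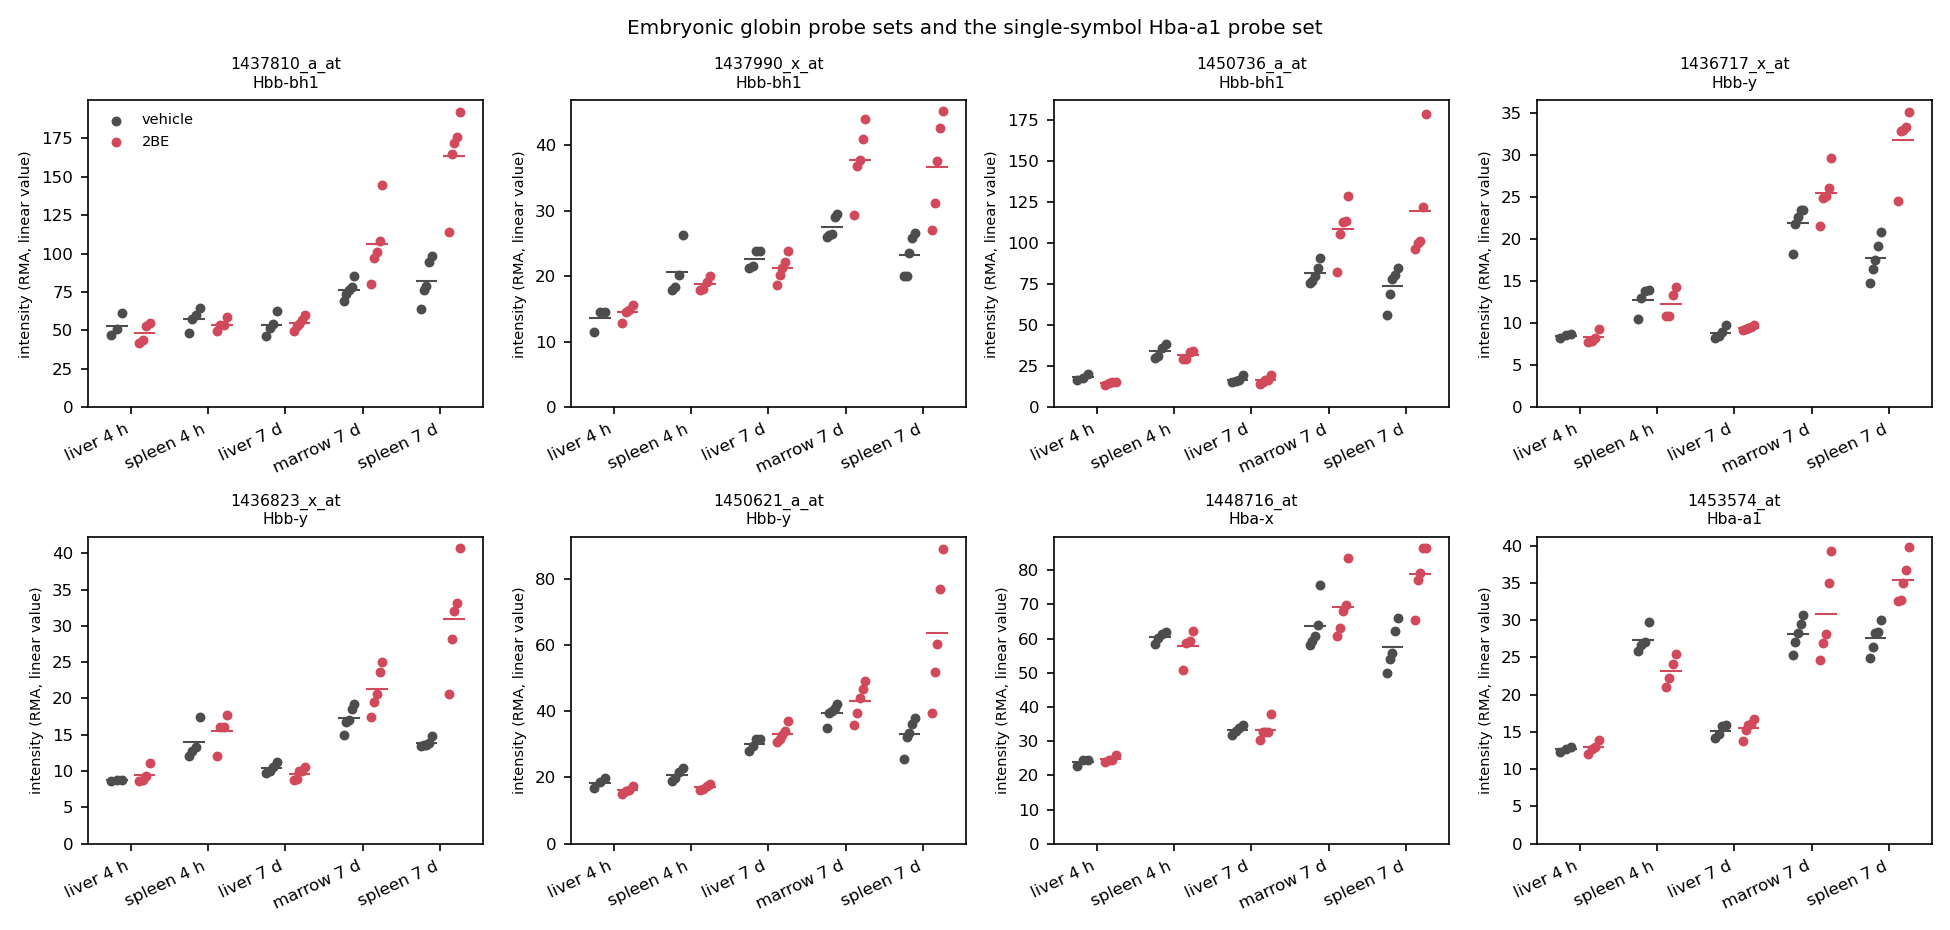
Intensity (linear axes from 0) of the 7 embryonic globin probe sets and of 1453574_at (Hba-a1) on each array, vehicle in grey and 2BE in red, with group means as bars; points are spread sideways for view, and levels are comparable only within a tissue and time. The arms separate in spleen at 7 days on all but 1448716_at (Hba-x), and overlap in liver at 7 days.

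The response itself differed between times and tissues, by a test of 1 difference against another. In spleen the change at 7 days exceeded that at 4 h for 9 of the 10 members and was below it for 1427865_at, against 45.8% of all probe sets called, 23.1% higher and 22.7% lower. The shared 1417714_x_at gave 0.20 (adjusted p = 0.0336), a call lost with further quantile normalization (0.161), with the replicate block (0.0696) and without 4 h vehicle replicate 3, 4 h 2BE replicate 2 or 4, 7-day vehicle replicate 1 or 7-day 2BE replicate 4 (0.0511 to 0.0623). For the 3 Hbb-y probe sets the excess was 0.85 to 1.15, and for the 3 of Hbb-bh1 0.74 to 1.07. In liver none of the 10 members differed between the times, against 0.142% of all probe sets called, and 3 passed an unadjusted p under 0.05. At 7 days the 7 embryonic probe sets changed more in spleen than in liver, by 0.46 to 1.17. No such comparison is made for the 4 shared adult probe sets, which were at the ceiling of the spleen arrays and below it in liver, at 6.6% to 65.4% of the brightest value. Of the members, 8 changed more and 2 less in spleen than in liver, against 50.2% of all probe sets called, 24.4% more and 25.8% less. Of the 2 that changed less, 1427866_x_at gave -0.78 (adjusted p = 0.0379), a call lost without liver vehicle replicate 1 or 4, liver 2BE replicate 2, 3 or 4, spleen vehicle replicate 2, 3, 4 or 5, or spleen 2BE replicate 1, 4 or 5 (adjusted p up to 0.117). That of Hba-a1, 0.31 (adjusted p = 0.048), was lost without liver vehicle replicate 2, 3 or 4, liver 2BE replicate 2, 3, 4 or 5, spleen vehicle replicate 1, 3, 4 or 5, or spleen 2BE replicate 1, 2 or 3. Against spleen, marrow changed less on the 3 Hbb-y probe sets (-0.59 to -0.79), on 1437810_a_at of Hbb-bh1 (-0.54) and on Hba-x (-0.33), and more on 1427865_at (0.27), with 38.3% of all probe sets called, 17.6% less and 20.8% more. The call on Hba-x was lost without marrow vehicle replicate 2 or 3, marrow 2BE replicate 1, 4 or 5, spleen vehicle replicate 1, 3 or 5, or spleen 2BE replicate 2, 3 or 4 (adjusted p up to 0.0889), and that on 1437810_a_at without marrow 2BE replicate 1 or spleen vehicle replicate 1 (0.0527 and 0.0514). Between spleen and liver at 7 days, the call on 1427866_x_at was also lost with a pseudocount of 16 (adjusted p = 0.109) or trended robust eBayes (0.062). Fitted on the arrays compared alone, it was lost as well (0.0668). That on Hba-a1 was lost with further quantile normalization (0.195) or array weights (0.057). Between marrow and spleen, the call on Hba-x was lost with further quantile normalization (0.101) and on the arrays compared alone (0.062). At 4 h the responses of spleen and liver differed for 0 of the 10 members, against 1.56% called, and for 2 at an unadjusted p under 0.05.

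Genes that work with globin in the red cell were read from fixed lists, with 1 probe set a gene. At 7 days in spleen all 12 measured genes of haem synthesis rose, with a median log2 fold change of 2.36: Abcb10 by 2.78, Cpox, the coproporphyrinogen oxidase, by 2.68, Urod by 2.59 and Abcb6 by 2.52. Of 11 erythroid transcription factors 9 rose, led by Klf1, the activator of adult beta globin, at 3.20, and Nfe2 (3.03), Tal1 (2.82) and Gata1 (2.60); Ldb1 and Myb did not pass. All 9 membrane skeleton genes rose (median 3.15), led by Epb42 at 3.81. Of 10 cytosol enzymes 9 rose (median 1.78) and Aldoa fell by 0.89. In all, 29.7% of probe sets rose in that spleen set.

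Of 11 genes known for the switch from embryonic or fetal to adult globin, 3 rose and 2 fell in spleen at 7 days, with a median of -0.04; over all probe sets 29.7% rose and 28.8% fell, so these counts are near the background and are no result about the list. Sox6, a repressor of embryonic globin, rose by 3.66 ± 0.39, and Dnmt1, the maintenance DNA methyltransferase, by 1.16 ± 0.16. Mbd2 rose by 0.43, and Chd4 (-0.30) and Nr2c1 (-0.25) fell. Bcl11a, a silencer of embryonic and fetal globin genes, gave 0.09 ± 0.07 (adjusted p = 0.258) and Zbtb7a 0.18 ± 0.16 (adjusted p = 0.349). Sox6 and the embryonic globin probe sets were thus both higher in the 2BE spleens. Of 8 genes for clearance of free haemoglobin and haem, Slc48a1, a haem transporter, rose by 1.05 and Fth1 by 0.50, while Cd163, the scavenger receptor for haptoglobin-bound haemoglobin, fell by 0.54, and Lrp1 (-0.52) and the iron exporter Slc40a1 (-0.29) fell too. With 2 higher and 3 lower, the counts of this list are also near the background and are no result about it.

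The same lists were read in marrow, where 6.69% of all probe sets rose and 8.46% fell; whether they changed less there than in spleen was not tested. Haem synthesis rose with 10 of 12 genes (median 0.40), membrane skeleton with 9 of 9 (median 0.54), cytosol enzymes with 7 of 10 (median 0.29) and erythroid transcription factors with 8 of 11, while Myb, a factor of early progenitors, fell by 0.71. Of the switching factors Sox6 rose by 0.64 and Nfia by 0.36. Hmox1, which opens the haem ring, fell by 0.84, and Slc40a1 (-0.33) fell. In liver at 7 days Slc25a37, the mitochondrial iron importer, rose by 0.57, Bpgm by 0.76 and Car2 by 0.54, and no other gene of these 6 lists was called.

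Markers of some other cell types moved in the same arrays, where 29.7% of all probe sets rose and 28.8% fell in spleen, and 6.69% and 8.46% in marrow. The mean log2 value of 10 erythroid markers was 8.81 to 10.48 in vehicle and 12.67 to 13.04 in 2BE spleens at 7 days, and all 10 rose (median 3.10). All 6 B cell markers fell (median -1.64; 11.72 to 12.05 in vehicle and 9.42 to 10.83 in 2BE), as did all 6 T cell markers (median -1.26) and 5 of 7 platelet markers. In marrow 9 of 10 erythroid markers rose (11.85 to 12.25 against 12.43 to 12.61) and all 6 B cell markers fell (median -1.31). There 2 of 6 T cell and 2 of 8 macrophage markers fell, and 0 of 7 platelet markers were called. In spleen 1 of 8 macrophage markers rose and 3 fell, counts near the shares over all probe sets and no result about these markers. For neutrophils, 0 of 8 markers were called in either tissue at 7 days. The spleen globin count was 10 called also without vehicle replicate 1, the array with the lowest erythroid mean. In bulk tissue, fewer cells of a type and less RNA per cell cannot be told apart, and the part of these shifts in the globin values was not tested.

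**Figure D5:**
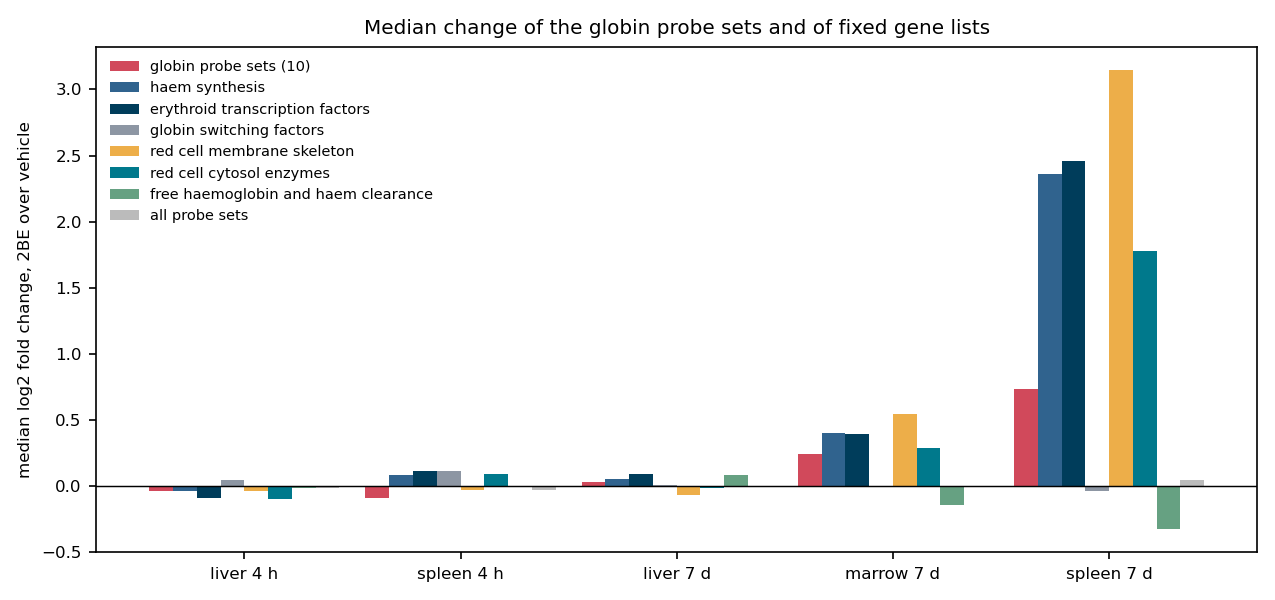
Median log2 fold change of 2BE over vehicle for the 10 globin probe sets, for 6 gene lists (1 probe set a gene) and for all probe sets, in the 5 tissue and time sets. In spleen at 7 days the globin median is 0.73 and that of the membrane skeleton list 3.15. These are unlike measures: the globin median covers every single-symbol probe set, most of them dim, without the shared adult ones at the ceiling. They do not show that globin RNA rose less.

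The genes whose pattern over the 44 arrays was most like a globin's, after taking each array as its deviation from the midpoint of the arms, were sought among 11507 genes. For Hbb-b2 (1427866_x_at) they were Cd24a (r = 0.863), Tent5c (0.861) and Prss29 (0.756). For Hbb-bh1 they were Mpp2 (0.866), Shisal2b (0.865) and Gpaa1 (0.865). For Hbb-y they were Fbxo36 (0.866), Armc8 (0.859) and Fbxw22 (0.854), and for Hba-x St8sia5 (0.87), Armc8 (0.846) and Mpp2 (0.836). Hba-a1's own probe set was most like 1700120C14Rik (0.784), Pigz (0.774) and Trim46 (0.745). Arrays of a group share treatment and normalization, which enters each of these values.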

How the data were processed

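Total RNA was labelled with the one-cycle biotin kit and hybridised to Affymetrix mouse arrays, per the labels' protocols. The authors deposited 1 intensity per probe set and array, made with RMA per the submitters' processing notes (version not given); the values lie between 6.16 and 47798 and are on a linear scale. RMA shares a quantile distribution over the arrays it is run on; array medians cluster by tissue and time, though those of spleen at 4 h and marrow overlap, and whether the sets were run apart is unknown here. The number of arrays limits the precision.

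From these, log2(value + 1) was fitted with limma 3.58.1 in R 4.3.3 (group means, all arrays of a tissue, or of a time point for differences between tissues; eBayes without trend), two-sided, with Benjamini-Hochberg adjustment over 45037 probe sets after 64 controls were left out. On this scale the added 1 shrinks the fold changes of dim probe sets. Gene symbols came from the platform annotation: 34945 probe sets have 1 symbol, 932 several and 9160 none. All probe sets with exactly 1 member symbol are named; a list gene is read by its probe set of highest mean, and up to 4 called genes of the largest change per list, and others where they bear on globin, are named. The members, lists and tests were chosen with earlier results of these data known. The fit was tested on simulated data. Replicate numbers were checked for pairing by the correlation of same-numbered arrays' deviations. All 3 pairs of liver at 4 h passed 0.1 before rounding (0.1 to 0.234) and may be paired. Those of the other 4 sets did not all do so. The main fit held no pair term in any set, liver at 4 h included, so its counts there are unpaired. The paired fit is given as an alternative, the replicate block. Alternatives were pseudocounts of 0 and 16, further quantile normalization, median scaling, a filter on low values, only the arrays compared, a replicate block, trended robust eBayes, array weights, 1 probe set a gene, each array left out, and, added after seeing the data, shared probe sets counted as members.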

Additional observations from a re-analysis of the deposited data

Results flagged for a closer look

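Of 135 groups of 4 or 5 arrays tested for an array far from the others, 8 (5.93%) had one, where chance gives about 1 in 20. In spleen at 7 days, vehicle replicate 1 was low on 1427866_x_at (Hbb-b2), at 2685 against 4748 to 5166, and on 3 shared adult probe sets: 33334 against 35974 to 36718 on 1417184_s_at, 32167 against 36035 to 37388 on 1417714_x_at, and 33837 against 35612 to 35948 on 1452757_s_at. That array also had the lowest erythroid marker mean, 8.81; the part of this in the values was not tested. 2BE replicate 5 was low on 1436717_x_at (Hbb-y), at 24.5 against 32.8 to 35.1, and vehicle replicate 4 high on 1436823_x_at (Hbb-y), at 14.9 against 13.5 to 13.8. In liver at 7 days vehicle replicate 1 read 82.6 on 1427865_at (Hbb-b2) against 97.6 to 101. In marrow vehicle replicate 4 read 79.6 on 1427219_at (Hba-a2) against 54.5 to 59.1.

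Differences between 2 responses passed limma's adjusted test as follows, in log2 units. Some of these calls were lost under alternatives, as given above. The spleen response at 7 days less that at 4 h was 0.85, 0.93 and 1.15 for Hbb-y, 1.07, 0.74 and 0.76 for Hbb-bh1, 0.52 for Hba-x, 0.57 for Hba-a1, 1.00 and -0.38 for Hbb-b2 (1427866_x_at and 1427865_at) and 0.20 for the shared 1417714_x_at, a call lost with further quantile normalization (adjusted p = 0.161), with the replicate block (0.0696) and without any 1 of 5 arrays (0.0511 to 0.0623); it was at the ceiling at both times. The spleen response less the liver response at 7 days was 0.72, 1.17 and 0.75 for Hbb-y (1436717_x_at, 1436823_x_at and 1450621_a_at), 0.95, 0.72 and 0.70 for Hbb-bh1, 0.46 for Hba-x and 0.31 for Hba-a1. It was -0.78 and -0.41 for Hbb-b2. For the shared adult probe sets the fit gave -1.08, -1.43, -1.05 and -0.84, but these were at the ceiling in spleen (81.5% to 100% of the brightest value) and not in liver, so the values do not compare the responses. The marrow response less the spleen response was -0.59, -0.79 and -0.76 for Hbb-y, -0.54 for Hbb-bh1 (1437810_a_at), -0.33 for Hba-x and 0.27 for 1427865_at.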

How the results depend on the processing

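Over the 10 members in 10 comparisons, 2198 values were computed under alternatives: 61 lost and 6 gained a call, no called member value changed sign, and 41 uncalled values did. The called value that reversed was that of the shared 1417184_s_at in spleen at 7 days, -0.004 under further quantile normalization, which also ended that of 1417714_x_at (adjusted p = 0.0506). The member count in liver at 7 days was 1 and fell to 0 with trended robust eBayes, and to 0 to 1 with 1 array left out. In marrow it was 4, then 2 with 1 probe set a gene (5 tested) and 2 to 6 with 1 array left out. In spleen at 7 days it was 10, also without each array, but 3 with the filter on low values and 5 with 1 probe set a gene, since 3 and 5 member probe sets were then tested: the filter leaves out 7 members that lie below the set's median in both arms. The spleen difference between times was 10, 3 filtered and 5 with 1 probe set a gene; spleen against liver at 7 days 10, 4 and 5; marrow against spleen 6, 1 and 3. Counts over all probe sets were, in liver at 4 h, 1400, 333 on the arrays compared alone, 856 with the replicate block, 821 with 1 probe set a gene and 768 to 1852 with 1 array left out; in spleen at 4 h 1911, 908, 938 with 1 probe set a gene and 1235 to 2010; in liver at 7 days 213, 503 with array weights, 136 with 1 probe set a gene and 56 to 457; in marrow 6821, 3651 with 1 probe set a gene and 5137 to 7653; in spleen at 7 days 26343, 11712 and 23493 to 28110. Fewer probe sets are tested with 1 a gene; the other causes were not tested. The replicate block left the member counts at 0, 0, 1, 4 and 10. It ended the spleen calls of 1417184_s_at (adjusted p = 0.098) and 1452757_s_at (adjusted p = 0.0998) at 7 days and that of 1417714_x_at between the times (adjusted p = 0.0696), and no other globin call. Outside liver at 4 h, same-numbered arrays did not all correlate over 0.1, from -0.342 to 0.452 in spleen at 4 h. Whether they are paired is unknown. Ceiling values in spleen and marrow limit what the shared adult probe sets can show, and dim values limit the embryonic ones.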
